A study of Mus musculus with 18 samples.

Results

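Livers of mice given metformin were compared directly with livers of mice under caloric restriction, gene by gene, with the ad libitum control left out of the ratio. The 2 groups hold 6 of the 18 libraries of the study. They were compared over the 11201 genes, of 12019 in the authors' deposited table, whose mean over the 5 group columns was at least 10. All animals were C57BL/6J mice that entered 8 weeks of intervention at 21 weeks of age. The metformin group (3 libraries) ate chow that delivered 37.5 mg/kg/day of metformin, and the restricted group (3 libraries) had its calories cut by 30%. The control ate ad libitum (6 libraries in the labels), and chow with rapamycin (42 mg/kg/day) or with TM5614 (20 mg/kg/day) was given to the remaining groups of 3. The labels give no sex, no hour of collection and no batch. All libraries come from RNA of the whole liver after perfusion with saline. Group means were the only values that could be tied to a group, so metformin and restriction are set apart by fold alone, without SD, standard error or p.

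Metformin is a biguanide that enters hepatocytes through membrane carriers, inhibits complex I of the mitochondrial respiratory chain and is known to restrain glucose production by the liver. Caloric restriction lowers insulin, moves the liver from making fat to burning it, and is known to alter growth hormone signalling and the feeding-entrained clock. Metformin is often described as a mimetic of restriction, which makes a side by side reading of the liver transcriptomes the natural question of this pair.

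Hepatocyte markers were abundant and close in both groups. All 10 hepatocyte markers were within 2-fold between the groups, with a median log2 ratio of metformin over restriction of -0.13, and the mean normalized count of albumin (Alb) was 668650 under metformin and 858112 under restriction. Of 10 pancreatic acinar markers in the table, 8 were listed at 0 in both groups, and the list summed to 655 in the control, 97.5 under metformin and 37.4 under restriction. Cela1, an elastase, made up most of the last 2 sums, at 93.8 and 33.9, and Amy2a5, an amylase, stood at 183 in the control. A listed 0 does not show absence here, since Amd1, a polyamine enzyme of all cells, is listed at 0 in 4 of the 5 groups. The part of this RNA in the differences from the control was not tested. No T and NK cell marker reached a mean of 10 over the groups, and the highest stood at 10.1 under metformin and 4.53 under restriction.

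Most genes lay close together in both livers. The median log2 ratio was -0.0026, computed from the group means with a pseudocount of 1, and 79.5% of genes were within 1.5-fold. At least 2-fold higher under metformin were 399 genes (3.56% of those compared), and at least 2-fold higher under restriction were 392 genes (3.50%), 791 genes or 7.06% in all. The balance depended on the settings: the counts were 253 and 298 with a pseudocount of 10, 240 and 288 for genes with a mean of at least 50, and 467 and 342 with equal totals without the transcripts Rn45s and Lars2. A 4-fold gap was met by 72 genes in favour of metformin and 65 in favour of restriction. Restriction held the outer position in most of these gaps. Among the 399 genes higher under metformin, the restricted mean was the lowest of the 5 group means for 384, or 96.2%, while the metformin mean was the highest for 165, or 41.4%. Among the 392 genes higher under restriction, the restricted mean was the highest of the 5 for 354, or 90.3%, and the metformin mean the lowest for 172, or 43.9%. Over all genes compared, the restricted mean was the lowest for 30.2% and the highest for 31.0%, and the metformin mean for 15.5% and 16.7%. Genes picked by the gap between the metformin and restricted means have higher shares than all genes by construction. The selection applies to both groups alike.

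**Figure D1:**
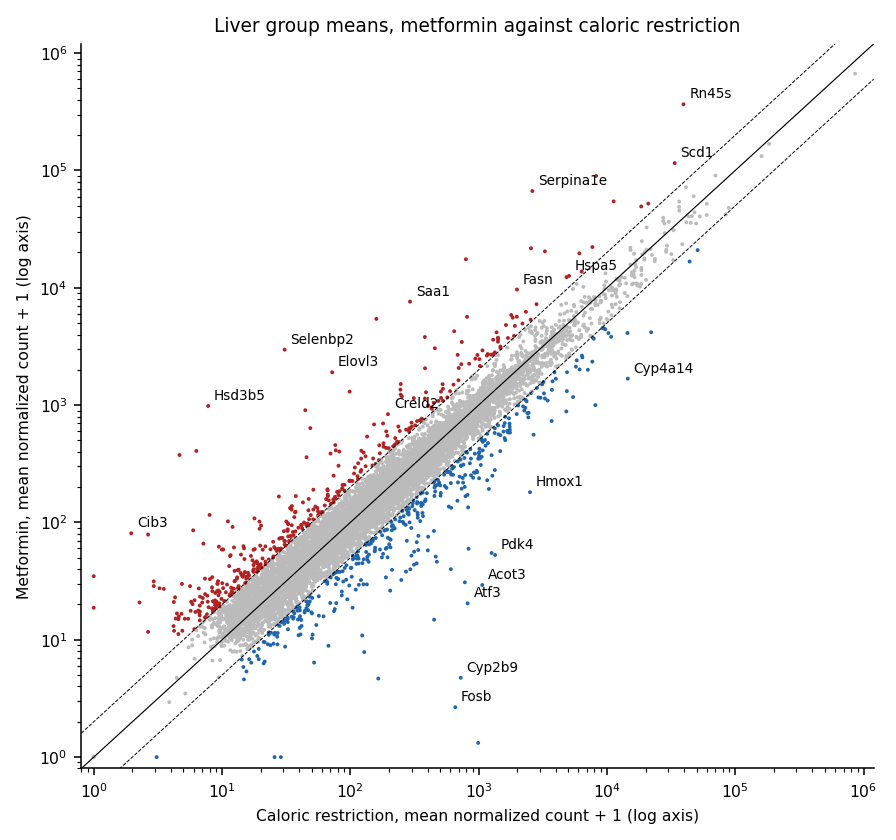
Mean normalized count + 1 under caloric restriction (horizontal, log axis) against that under metformin (vertical, log axis), 1 point a gene, with dashed lines at 2-fold. The 399 red genes were at least 2-fold higher under metformin and the 392 blue genes at least 2-fold higher under restriction; the bulk lies along the diagonal.

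Each group was also compared with the ad libitum control by the authors. In the authors' deposited table, 12 of the 7350 genes with an adjusted p rose under metformin (0.163%) and 6 fell (0.0816%), 0.245% in all. For restriction the authors' deposited table has more calls: 1145 of 11760 genes rose (9.74%) and 1087 fell (9.24%). These comparisons share the control libraries with each other and their treated libraries with the ratio used here, so their values are given side by side and are not separate evidence. Spread between libraries enters only through them.

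Genes that differ between male and female mouse livers were prominent among those furthest apart, with 5 male-biased genes among the 12 highest ratios and 6 female-biased genes among the 12 lowest. Of 24 male-biased genes, whose liver expression depends on pulsed growth hormone, 19 were at least 2-fold higher under metformin and 1, the sulfotransferase Sult1d1, at least 2-fold higher under restriction, with a median log2 ratio of 2.51. Of 14 female-biased genes, none was 2-fold higher under metformin and 11 were 2-fold higher under restriction, with a median of -3.14. The labels give no sex of the animals, so sex and treatment cannot be told apart for these lists. On the female-biased side 14 of 19 listed genes met the filter, and 4 of these 14, Cyp2b9 and Cux2 among them, passed through restriction alone and so had to differ; of the male-biased genes 1, Moxd1, passed through metformin alone. Hsd3b5 (chromosome 3, 98618634 to 98630252 in mm10), a steroid-metabolizing enzyme of male liver, had mean normalized counts of 968 in the control, 983 under metformin, 6.80 under restriction, 618 under rapamycin and 481 under TM5614. Restriction alone stood low, at a log2 ratio of 6.98. Selenbp2, a selenium-binding protein, gave 2421, 2971, 29.7, 1001 and 3292 in the same order, a ratio of 6.59. The fatty acid elongase Elovl3 gave 2672, 1905, 71.2, 4219 and 1201, a ratio of 4.72.

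The opposite pattern belonged to female-biased enzymes. The cytochrome Cyp2b9 had means of 13, 3.75, 724, 5.63 and 2.79 in control, metformin, restriction, rapamycin and TM5614, a log2 ratio of -7.26. Restriction alone stood high, and with a metformin mean of a few counts the ratio depends on the pseudocount. Cux2, a transcription factor of female liver, gave 1.0, 3.67, 164, 0.667 and 0, a ratio of -5.14. Acot3, a peroxisomal acyl-CoA thioesterase, stood at 28.3 under metformin and 1066 under restriction.

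Against the control, metformin left both lists without a call. In the authors' deposited table none of 19 male-biased and none of 11 female-biased genes with an adjusted p passed under metformin, while under restriction 19 of 23 male-biased genes fell and 2 rose, and 11 of 18 female-biased genes rose and none fell. The adjusted p of Hsd3b5 in the authors' deposited table was 2.09e-49 for restriction and 0.998 for metformin.

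The major urinary proteins, pheromone carriers made in the liver under growth hormone, were picked out as a family after their values were seen. Of 17 Mup genes compared, 16 were at least 2-fold higher under metformin, with a median log2 ratio of 2.27 and a range from -0.53 (Mup11) to 6.33 (Mup16). Mup3, Mup7 and Mup20 are also counted among the male-biased genes. Mup14 had a mean of 17508 under metformin and 795 under restriction. Mup genes are near-identical copies, and how the authors' counting split reads among them is not known, so single members are uncertain. The genes of the growth hormone and IGF1 axis itself showed few such gaps: 2 of 14 were 2-fold higher under metformin and 1 under restriction, with a median of -0.26. Igf1, the circulating growth factor that growth hormone induces, stood at 4160 under metformin and 5056 under restriction. Igfbp1, an insulin-suppressed binding protein, had means of 3625, 1171, 5448, 9317 and 995 in control, metformin, restriction, rapamycin and TM5614, a log2 ratio of -2.22; its adjusted p in the authors' deposited table was 0.834 for metformin and 0.71 for restriction.

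**Figure D2:**
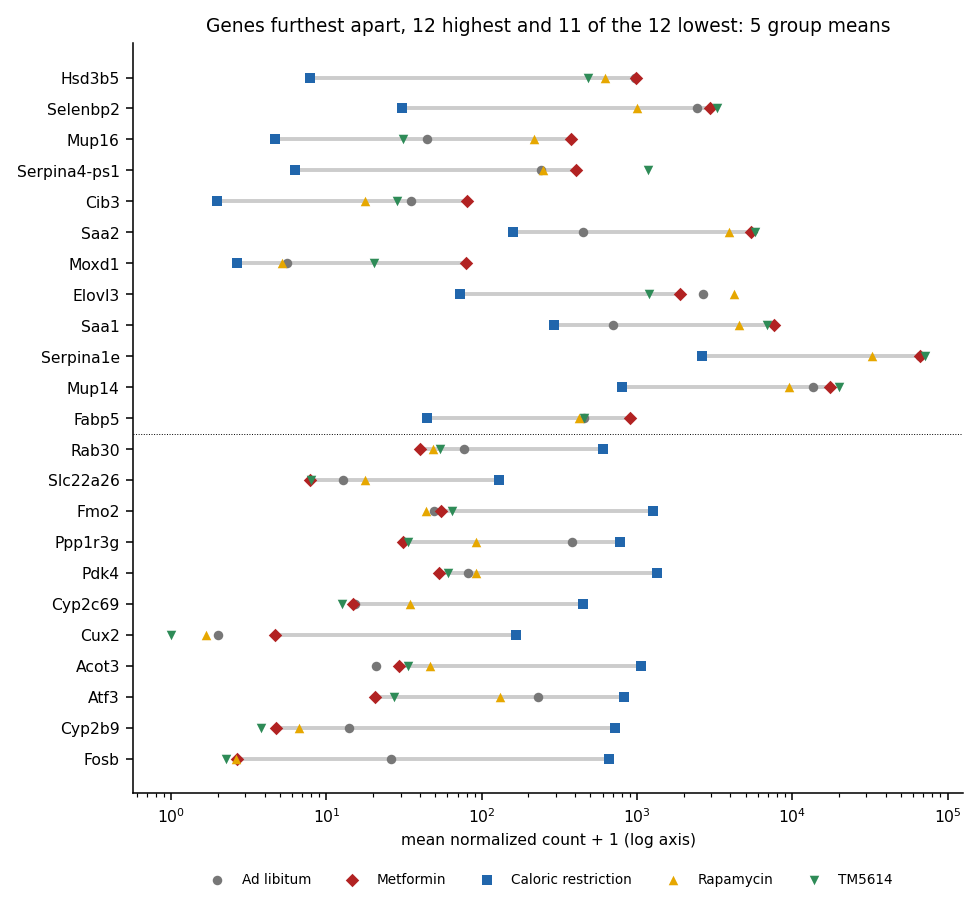
Mean normalized count + 1 (horizontal, log axis) in all 5 groups for the 12 genes with the highest and 11 of the 12 with the lowest log2 ratio of metformin over restriction whose higher mean was at least 50. In the lower ratios Cyp2b9 and Acot3 stand high under restriction alone, and in the higher ratios Hsd3b5 and Selenbp2 stand low under restriction alone; Saa1 and Saa2 stand high under metformin, rapamycin and TM5614.

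Chaperones of the endoplasmic reticulum (ER) made up 4 of the 12 genes that rose under metformin against the control in the authors' deposited table, and most stood higher under metformin than under restriction. The unfolded protein response, through ATF6 and XBP1, induces these folding factors by binding the ER stress response element in their promoters, which reads CCAAT, then 9 bases of any kind, then CCACG. The promoters below are shown because they carry this element, in capitals, in genes that span the range of ratios. They are from RefSeq on GRCm38.p6, written 5′ to 3′ on the gene's strand; in Creld2 and Calr the element lies on the opposite strand, so that it reads CGTGG, 9 bases, ATTGG. For Hspa5 and Pdia6 only 5 bases on each side are shown, since an exon is annotated there.
Creld2, chr15:88819480-88819578, plus strand: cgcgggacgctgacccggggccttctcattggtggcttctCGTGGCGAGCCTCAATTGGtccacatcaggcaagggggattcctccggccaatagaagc
Hspa5, chr2:34772020-34772048, plus strand: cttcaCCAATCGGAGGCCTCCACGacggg
Pdia6, chr12:17266486-17266514, plus strand: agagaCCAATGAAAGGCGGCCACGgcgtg
Calr, chr8:84847035-84847133, minus strand: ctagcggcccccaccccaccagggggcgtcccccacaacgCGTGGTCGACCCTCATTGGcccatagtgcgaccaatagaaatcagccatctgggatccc
Canx, chr11:50325760-50325858, minus strand: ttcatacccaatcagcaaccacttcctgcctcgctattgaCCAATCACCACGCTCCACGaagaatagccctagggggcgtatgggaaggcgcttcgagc
Dnajc3, chr14:118937787-118937885, plus strand: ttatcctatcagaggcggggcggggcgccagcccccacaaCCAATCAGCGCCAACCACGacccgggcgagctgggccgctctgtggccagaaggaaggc

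Of 21 ER chaperone and quality control genes, 10 were at least 2-fold higher under metformin and 1 under restriction, with 18 above 0 and a median log2 ratio of 0.93. Creld2 (chromosome 15, 88819646 to 88826683), a secreted ER stress protein, had mean normalized counts of 208 in the control, 836 under metformin, 195 under restriction, 440 under rapamycin and 431 under TM5614. Metformin alone stood well above all others, restriction was level with the control, and the log2 ratio was 2.09. Hspa5 (chromosome 2, 34771970 to 34777547), the master ER chaperone BiP, gave 6022, 12633, 5065, 9734 and 8788, a ratio of 1.32. The adjusted p under metformin was 0.000126 for Creld2 and 0.0141 for Hspa5 in the authors' deposited table, and under restriction 0.898 and 0.552.

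For Manf and Hyou1 the groups stood on opposite sides of the control. Manf, a secreted stress factor, had means of 540, 1147 and 311 in control, metformin and restriction, and Hyou1, a large ER chaperone, 1134, 2233 and 732. Manf rose under metformin (adjusted p 0.00114) and fell under restriction (0.00262) in the authors' deposited table. Hyou1 likewise rose (adjusted p 0.00304) and fell (0.018) in the authors' deposited table.

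For Sdf2l1, Pdia6 and Calr the restricted mean stood further from the control than the metformin mean. Sdf2l1, a partner of Hspa5, stood at 253, 359 and 44.6 in control, metformin and restriction, a log2 ratio of 2.98. The protein disulfide isomerase Pdia6 stood at 2170, 2490 and 941, and the calcium-binding lectin chaperone Calr at 6520, 7246 and 2826. By the authors' deposited table, 4 of 20 members rose under metformin and none fell, and under restriction 9 of 21 fell and 1, Dnajb9, rose. Herpud1, a component of ER-associated degradation, went the other way, with 3751 under metformin and 7769 under restriction, a log2 ratio of -1.05. Dnajc3, a co-chaperone whose promoter is shown above, was level at 2326 and 2377.

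The element was found in 35 of 27025 genes with a RefSeq promoter entry (0.13%), searched on both strands of the 250 bases before each start site, and in 9 of the 19 list members with an entry. The 9 with the element had a median log2 ratio of 1.32, from -0.03 (Dnajc3) to 2.32 (Derl3, which passed the filter through metformin alone). The 10 without it had a median of 0.84, from -1.05 (Herpud1) to 2.98 (Sdf2l1). The ranges overlap, and members without a perfect match include Sdf2l1 and Pdia4 among the highest.

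**Figure D3:**
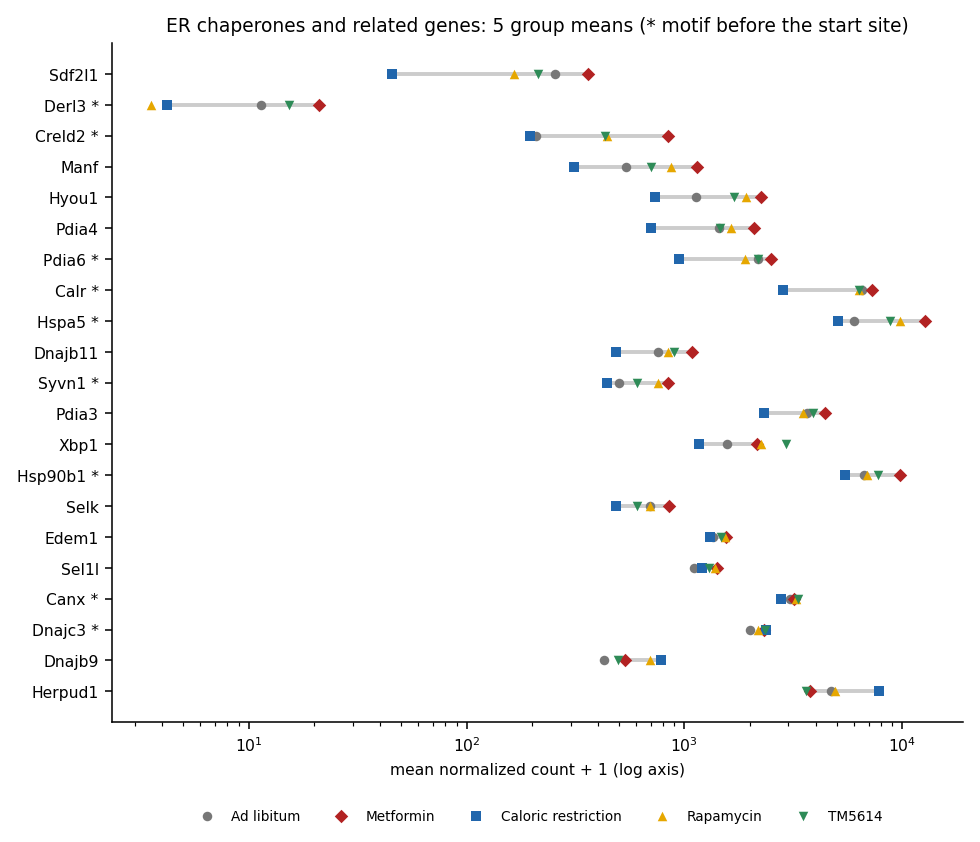
Mean normalized count + 1 (horizontal, log axis) in the 5 groups for the 21 ER chaperone and quality control genes; a star marks the 9 with the ER stress response element. For Creld2 and Hspa5 the metformin mean stands above all other groups, for Sdf2l1, Pdia6 and Calr the restricted mean stands below all others, and Herpud1 is highest under restriction.

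The rest of the secretory route followed at a smaller scale. Of 25 genes of translocation, glycosylation and vesicle transport, 5 were at least 2-fold higher under metformin and none under restriction, with 23 above 0 and a median of 0.40. Mlec, an ER lectin, stood at 675, 1046 and 445 in control, metformin and restriction, a log2 ratio of 1.23, and the mannose-activating enzyme Gmppb at 99.1, 181 and 77.9. In the authors' deposited table Mlec, Gmppb and the COPII coat gene Sec23b rose under metformin (adjusted p 0.0017, 0.0152 and 0.0367), and 8 of 25 members fell under restriction. The ATF4 arm of the stress response, which answers amino acid shortage, was mixed: of 17 targets 12 were below 0 and 5 above, none was 2-fold higher under metformin and 5 were 2-fold higher under restriction, with a median of -0.47. Among them Ddit3, the factor CHOP, stood at 28.7 under metformin and 134 under restriction, with no adjusted p in the authors' deposited table. Fgf21, a fasting hormone, stood at 10.1 and 49.8. Asns, the asparagine synthetase, stood the other way at 83.8 and 41.7, a ratio of 0.99 that reached 1.01 with a pseudocount of 0.1 and 1.06 with equal totals. Under restriction 4 of 17 ATF4 targets rose and 1, Atf5, fell in the authors' deposited table.

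Fat synthesis was higher under metformin and fat oxidation higher under restriction. Of 25 lipogenic genes, 11 were at least 2-fold higher under metformin and none under restriction, with a median log2 ratio of 0.45. Fasn (chromosome 11, 120805846 to 120824547), the fatty acid synthase, had means of 8505, 9678, 1990, 6858 and 4832 in control, metformin, restriction, rapamycin and TM5614, a ratio of 2.28. Restriction was the lowest group and metformin the highest. The desaturase Scd1 stood at 115518 under metformin and 33750 under restriction, and Acly, which supplies cytosolic acetyl-CoA, at 4172 and 1379. Under restriction 12 of 26 lipogenic genes fell and 4 rose in the authors' deposited table, and none of 23 passed under metformin. The 4 that rose, Plin5, Dgat2, Plin4 and Fads2, encode 2 lipid droplet proteins, an enzyme of triglyceride assembly and a desaturase. Cholesterol synthesis leaned the same way, with 4 of 25 genes at least 2-fold higher under metformin, none under restriction and a median of 0.37. Hmgcs1, the entry enzyme of that pathway, stood at 5564 and 1843 under metformin and restriction. Of the 25 cholesterol genes 7 fell and none rose under restriction in the authors' deposited table, and none passed under metformin.

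Of 30 fatty acid oxidation genes, none was 2-fold higher under metformin and 8 were at least 2-fold higher under restriction, with a median of -0.34. Pdk4 (chromosome 6, 5483351 to 5496309), the kinase that closes pyruvate dehydrogenase in fasting, had means of 80.7, 51.8, 1344, 91.1 and 59.4 in control, metformin, restriction, rapamycin and TM5614. Restriction stood apart from the other 4 groups, at a log2 ratio of -4.67. The omega-hydroxylase Cyp4a14 gave 2648, 1681, 14539, 6428 and 3973, a ratio of -3.11, and is also counted among the female-biased genes. The thioesterases Acot1, Acot2 and Acot4 had ratios of -2.64, -2.88 and -2.16. Ppara, the nuclear receptor that drives this programme, stood at 1400 under metformin and 2846 under restriction, and the carnitine transferase Cpt1a at 2614 and 5110. Of these oxidation genes 13 of 30 rose and 2 fell under restriction in the authors' deposited table, and none of 28 passed under metformin.

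**Figure D4:**
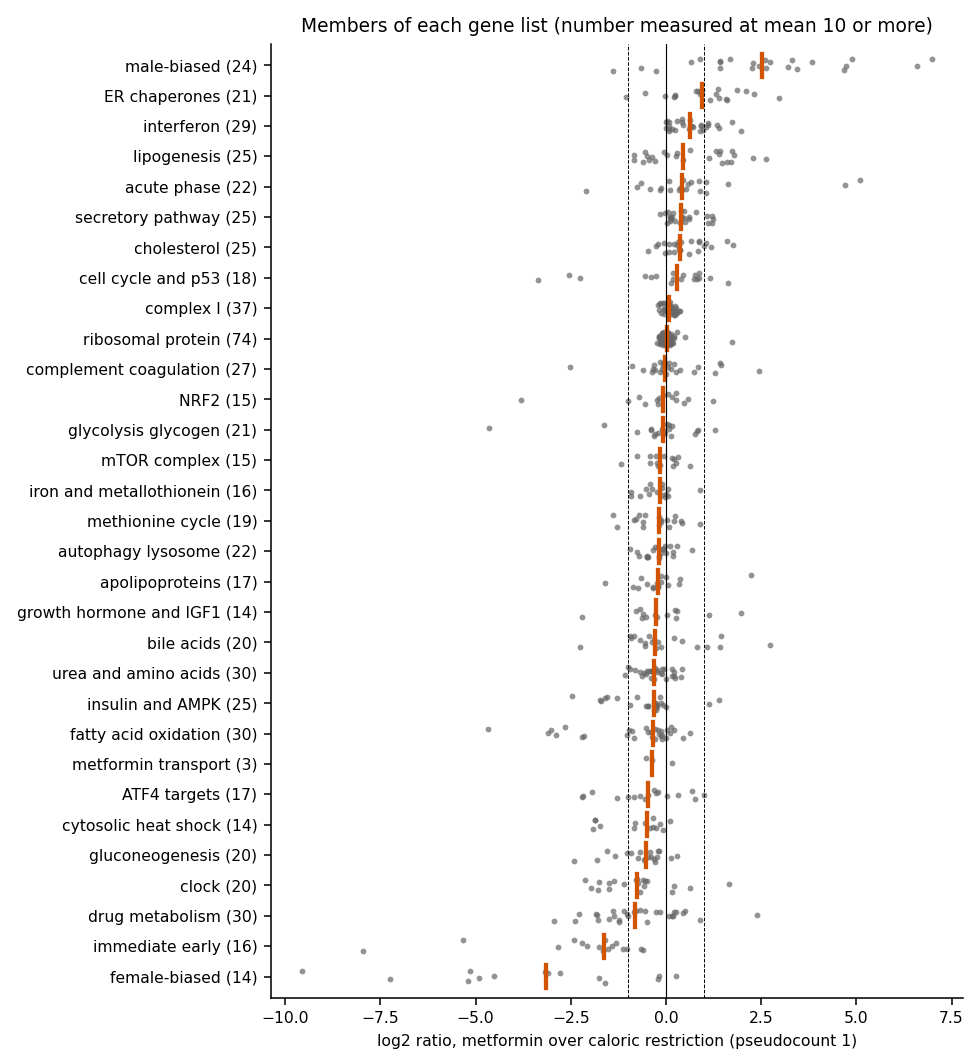
Log2 ratio of metformin over restriction (horizontal) for each compared member of the gene lists (rows), 1 point a gene, with the median in orange. The cell type marker lists are not drawn. The median of the male-biased list is 2.51, that of the female-biased list -3.14 and that of the immediate early genes -1.62, while complex I and ribosomal protein genes have medians of 0.08 and 0.02.

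Regulators of glucose production were lower under metformin than under restriction, while G6pc, its last enzyme, was close in both. Of 20 gluconeogenic genes, none was at least 2-fold higher under metformin and 5 were so under restriction, with 18 below 0 and a median of -0.52. Foxo1 (chromosome 3, 52268336 to 52353221), the insulin-restrained factor that activates these genes, had means of 606, 349, 1020, 536 and 523 in control, metformin, restriction, rapamycin and TM5614. Metformin was the lowest group and restriction the highest, at a log2 ratio of -1.54. Foxo1 fell under metformin (adjusted p 0.00304) and rose under restriction (9.38e-05) in the authors' deposited table. Lpin2, a phosphatidate phosphatase and coregulator, gave 4670, 2347, 7690, 3155 and 3021, a ratio of -1.71, and also fell (adjusted p 0.0177) and rose (0.0179) in the authors' deposited table. Ppargc1a, the fasting coactivator PGC-1 alpha, stood at 214, 74.6 and 403 in control, metformin and restriction, with adjusted p of 0.0912 and 0.107 in the authors' deposited table. Pck1, the committed enzyme, stood at 17235 under metformin and 32829 under restriction, a ratio of -0.93, and G6pc at 3610 and 3318, a ratio of 0.12. Under restriction 9 of 20 gluconeogenic genes rose and none fell in the authors' deposited table, and under metformin Foxo1 alone of 19 passed.

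Genes of insulin and AMPK signalling were mostly lower under metformin, with 23 of 25 below 0, 6 at least 2-fold higher under restriction, 2 at least 2-fold higher under metformin and a median of -0.31. The 2 higher under metformin, Acaca and Acacb, are also counted among the lipogenic genes, and Foxo1 is also counted among the gluconeogenic genes. The energy sensor's own catalytic subunits were close in both groups: Prkaa1 stood at 129 under metformin and 154 under restriction, and Prkaa2 at 579 and 607. Nampt, the rate-limiting enzyme of NAD salvage, stood at 523 and 1594. Gdf15, a stress hormone linked to metformin in blood, was lower in the metformin livers, with 97.7, 33.0 and 188 in control, metformin and restriction and adjusted p of 0.927 and 0.61 (the authors' deposited table). The efflux carrier Slc47a1, which exports metformin, stood at 659 and 844. Complex I, metformin's best known target, showed no gap in its nuclear transcripts: none of 37 genes was 2-fold apart, with ratios from -0.20 to 0.37 and a median of 0.08. Of 74 ribosomal protein genes 1 was 2-fold apart, Rpl26, at means of 58.4 and 17.0, and the median was 0.02; ribosomal protein genes have many near-identical pseudogenes, so single members are uncertain. None of 22 autophagy and lysosome genes and none of 16 iron genes was 2-fold apart, although 8 of those 22 rose and 2 fell under restriction against the control in the authors' deposited table. In glycogen metabolism Ppp1r3g, which targets a phosphatase to glycogen, had means of 381, 29.9, 780, 90.5 and 32.4 in control, metformin, restriction, rapamycin and TM5614, a ratio of -4.66, with adjusted p of 0.0989 under metformin and 0.548 under restriction in the authors' deposited table.

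Drug-metabolizing enzymes were mostly higher under restriction. Of 30 such genes, 1 was at least 2-fold higher under metformin and 13 under restriction, with a median of -0.81. Cyp2a5, the coumarin hydroxylase, had means of 2104, 4182, 22108, 2077 and 5008 in control, metformin, restriction, rapamycin and TM5614, a log2 ratio of -2.40. Por, the reductase that feeds electrons to all microsomal cytochromes P450, stood at 2652, 4119 and 14471 in control, metformin and restriction. Metformin lay between the control and restriction for both, with adjusted p against the control of 0.302 and 0.579 in the authors' deposited table. Cyp2c55 was the exception, at 101 under metformin and 18.6 under restriction. Under restriction 15 of 30 members rose and 5 fell in the authors' deposited table, and none of 28 passed under metformin. Pericentral hepatocyte markers, from the zone where many of these enzymes reside, had a median ratio of -0.52 and summed means of 63788 under metformin and 112505 under restriction, with 1 of 11, Slc1a2, at least 2-fold apart and none at 0. Cyp2e1, which is also one of the 30 drug-metabolizing genes, carried most of that sum, and without it the sums were 21573 and 28122. Markers of the opposite, periportal zone leaned the same way. Of these 10 markers 7 were below 0 and 3 above, with a median of -0.27 and sums of 60582.5 under metformin and 81664.3 under restriction. In whole liver, fewer cells of a type and less RNA per cell cannot be told apart, and the part of either zone in the result was not tested. Hmox1, which degrades haem, stood apart from the other antioxidant genes with 178, 180, 2514, 952 and 259 across the 5 groups, a ratio of -3.80, while 13 of the 15 antioxidant genes were within 2-fold.

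In bile acid handling 4 of 20 genes were at least 2-fold higher under metformin and 1 under restriction, with a median of -0.29. Under restriction 7 of the 20 rose and 5 fell in the authors' deposited table, and none passed under metformin. The uptake carriers diverged: Slco1a1 stood at 3052 under metformin and 455 under restriction, and Slco1a4 at 559 and 2682. Slco1a1 and Cyp7b1 of this list are also counted among the male-biased genes. The 12-alpha-hydroxylase Cyp8b1 stood at 2813 and 1337, and Cyp7a1, which starts the classical route from cholesterol, at 1627 and 1216. In the methionine cycle Ahcy and Mat1a, which clear S-adenosylhomocysteine and make S-adenosylmethionine, had ratios of -1.40 and -1.28, and the other 17 of 19 genes were within 2-fold. Of 30 urea cycle and amino acid genes 1, Asl, was 2-fold apart, at 4487 under metformin and 9546 under restriction.

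The clock genes mostly stood higher under restriction, with exceptions. Of 20 genes, 8 were at least 2-fold higher under restriction and 1, the repressor Nr1d1, at least 2-fold higher under metformin, with a median of -0.75. CLOCK and ARNTL drive many of these genes through the E-box CACGTG. The promoters of Cry1 and Per1 are shown because both genes were over 2-fold higher under restriction and carry this motif, in capitals, within 250 bases of the RefSeq start (GRCm38.p6).
Cry1, chr10:85185069-85185154, minus strand: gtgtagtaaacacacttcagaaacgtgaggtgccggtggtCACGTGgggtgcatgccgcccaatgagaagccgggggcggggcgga
Per1, chr11:69098743-69098828, plus strand: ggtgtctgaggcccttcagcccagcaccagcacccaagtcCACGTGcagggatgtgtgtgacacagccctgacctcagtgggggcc

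Cry1, a repressor of the clock, had means of 65.4, 68.8, 275, 124 and 54.1 in control, metformin, restriction, rapamycin and TM5614, a log2 ratio of -1.98. The repressor Per2 gave 61.5, 102, 350, 30.6 and 139, a ratio of -1.77. Nr1d1 gave 445, 596, 189, 578 and 617, a ratio of 1.65. Dbp, an output factor of the clock, was close in both at 630 under metformin and 544 under restriction, while the control stood at 177. The adjusted p of Dbp in the authors' deposited table was 0.141 under metformin and 0.0222 under restriction. Over the list, 10 of 20 clock genes rose and 1, Nr1d1, fell under restriction in the authors' deposited table, and none of 15 passed under metformin. The labels give no hour of collection or feeding, so hour and treatment cannot be told apart for this list. The E-box was present in 5 of 16 clock genes with a promoter entry and in 1854 of 27025 genes (6.86%); the 5 had a median ratio of -0.79 and the 11 without it -0.54.

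Immediate early genes, which are transcribed within minutes of a stimulus, were higher under restriction throughout the list, yet few passed against the control. All 16 were below 0, 14 were at least 2-fold higher under restriction, and the median was -1.62. Atf3, a stress-induced factor, had means of 231, 19.5, 820, 131 and 26.3 in control, metformin, restriction, rapamycin and TM5614, a ratio of -5.33, with adjusted p of 0.351 under metformin and 0.335 under restriction in the authors' deposited table. Fos gave 28.0, 42.7, 313, 92.5 and 36.4, a ratio of -2.84. Fosb (chromosome 7, 19302696 to 19310051), an AP-1 subunit, gave 25.0, 1.66, 657, 1.62 and 1.24, a ratio of -7.95. It passed the filter through restriction alone, since its other 4 means averaged 7.39, so it had to differ. The authors' deposited table gives Fosb no adjusted p in either comparison. Of 15 members with an adjusted p, 3 (Fos, Klf6 and Ier2) rose under restriction in the authors' deposited table and 12 did not pass. Under metformin Srf alone of 13 passed, and it fell from 242 to 113 (adjusted p 0.046 in the authors' deposited table). How the mean of 657 for Fosb was spread over the 3 restricted libraries is not known.

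Of 14 heat shock genes, 4 were at least 2-fold higher under restriction and none under metformin, with a median of -0.49. Hspb1, a small heat shock protein, stood at 225, 268 and 974 in control, metformin and restriction, and 8 of 13 members rose under restriction in the authors' deposited table. Cdkn1a, the cell cycle inhibitor p21, had means of 328, 171, 819, 1276 and 261 in control, metformin, restriction, rapamycin and TM5614, a ratio of -2.26, and the authors' deposited table gives adjusted p of 0.912 and 0.123. Of 17 cell cycle and p53 genes none rose and 3, Trp53, Mcm3 and Mcm5, fell under restriction in the authors' deposited table. The DNA damage genes Gadd45b and Gadd45a had ratios of -3.35 and -2.54, and Ccnd1, cyclin D1, stood the other way at 393 under metformin and 126 under restriction. For the 18 genes of cell cycle and p53 the median of 0.29 turned to -0.34 when only genes with a mean of at least 50 were kept, so the list has no single direction.

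**Figure D5:**
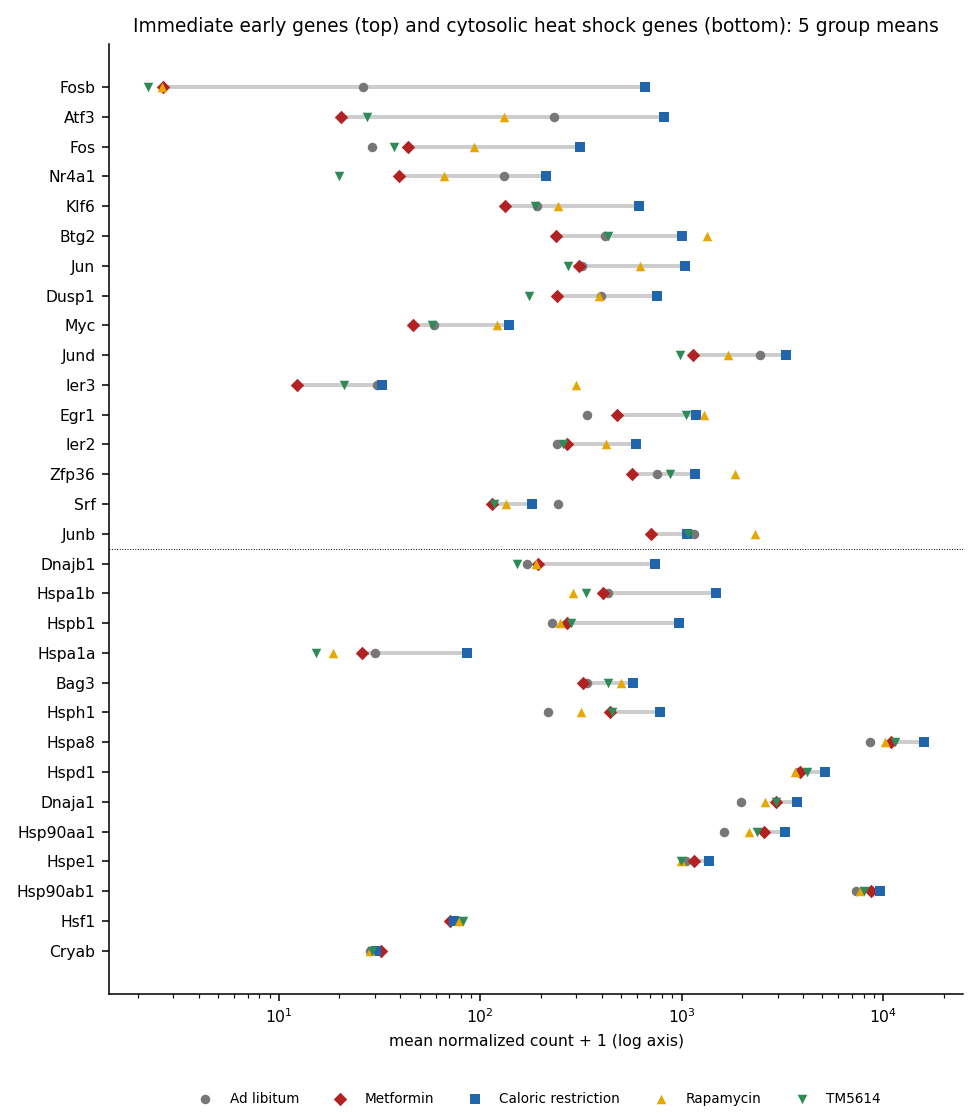
Mean normalized count + 1 (horizontal, log axis) in the 5 groups for the 16 immediate early genes (top) and the 14 cytosolic heat shock genes (bottom). Fosb and Atf3 show the widest gaps between metformin and restriction, and for Hspb1 and Hspa1b restriction stands above the other 4 groups.

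Acute-phase genes stood high under metformin through the serum amyloids. Saa1 (chromosome 7, 46740497 to 46742980), carried on HDL in inflammation, had means of 696, 7622, 291, 4545 and 6855 in control, metformin, restriction, rapamycin and TM5614, and Saa2 gave 450, 5437, 159, 3898 and 5777. All 3 compounds stood above the control and restriction, and the log2 ratios were 4.71 and 5.09. In the authors' deposited table Saa1 rose under metformin (adjusted p 0.0121) and did not pass under restriction (0.296), and Saa2 passed in neither (0.0866 and 0.317). Saa1 and Saa2 are close copies whose reads may be shared. Over 22 acute-phase genes 5 were at least 2-fold higher under metformin and 1, Orm3, under restriction, with a median of 0.43. Under restriction 3 of 22 members rose (Orm3, Orm2 and Lbp) and 2 fell (the fibrinogen chains Fga and Fgg) in the authors' deposited table. These counts lie near the shares over all genes with an adjusted p there, 9.74% rising and 9.24% falling. Saa1 alone of 21 members passed under metformin in the authors' deposited table.

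Of 29 interferon-stimulated genes 28 were above 0, 7 were at least 2-fold higher under metformin and none under restriction, with a median of 0.63. Ifi47, an interferon-induced GTPase, stood at 142, 137 and 34.0 in control, metformin and restriction. Metformin was level with the control. Under restriction 7 of 30 members fell in the authors' deposited table, and none of 15 passed under metformin. Markers of Kupffer cells, the resident macrophages of the liver, moved beside this list: 10 of 12 were above 0 and none 2-fold apart, with a median of 0.59 and summed means of 2120, 1491 and 1043 in control, metformin and restriction. Of 11 Kupffer markers with an adjusted p, 5 fell and none rose under restriction in the authors' deposited table, and none was at 0 in either group. The part of these cells in the interferon result was not tested. The terminal complement genes C6, C8a, C8b and C9, made by hepatocytes, had ratios of 2.43, 1.42, 1.45 and 1.30, while C3, the central component, stood at 47952 under metformin and 88998 under restriction. C6 and C8a are also counted among the male-biased genes. Over 28 complement and coagulation genes 5 rose and 8 fell under restriction in the authors' deposited table, and none of 27 passed under metformin.

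A pair of transcripts stood apart under metformin. Rn45s, the ribosomal RNA precursor, had means of 17687, 366479, 39519, 44094 and 10283 in control, metformin, restriction, rapamycin and TM5614, and Lars2, a mitochondrial leucyl-tRNA synthetase, 911, 21730, 2559, 2368 and 629. Lars2 followed Rn45s over the groups, with both highest under metformin and lowest under TM5614. The authors' deposited table has both as raised under metformin, with adjusted p of 0.00561 and 0.00295. How the authors' counting split reads between them is not known, so Lars2 on its own is uncertain. The share of Rn45s in the sum of all group means was 4.40% for metformin and 0.472% for restriction. The libraries were made by poly(A) selection, and the part of this RNA in the other differences was not tested; scaling the means to equal totals without both transcripts moved the median log2 ratio by 0.069.

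At the level filter, Ccl2 and Msl3l2, with means over the groups of 10.0042 and 10.0167, were just inside, and Cenpm and Wdr5b, with 9.99153 and 9.99099, just outside. Of the 791 genes at least 2-fold apart, 5 were listed at 0 in 1 of both groups: Cspg5 and Mup17 under restriction, and Dmbt1, Gm7334 and LOC100048884 under metformin.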

How the data were processed

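Liver RNA was sequenced after poly(A) selection, per the labels' protocols. Reads were aligned with HISAT2 2.0.5 to mm10, per the submitters' processing notes; which program counted genes, and with which annotation, is not given in the sources used here. In the deposited table every group has 1 column of normalized signal, per the file headers. From its values this is a group mean of counts after size factor scaling, and the table's name says that the authors used DESeq2. It also holds the authors' adjusted p-value and log2 fold change against the control, which were copied without change. Another deposited table has 18 columns of values per library whose names match no label, and none was used. The depth of each library is therefore unknown. The smallest means above 0 (0.322 under metformin, 0.299 under restriction) are of the size of 1 read in 1 of 3 libraries. The same holds for the control (0.315), although the labels list 6 control libraries, and which libraries stand behind its mean is not known. The design text names 30 mice, while the groups sum to 18. Nothing beyond the labels says that libraries are separate animals. The authors' p-values set a difference from the control against the spread between the libraries that the authors used.

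The log2 ratio was log2((metformin mean + 1)/(caloric restriction mean + 1)) over genes whose 5 group values averaged at least 10, and a gene counted as apart at 2-fold. Calls against the control are the authors' adjusted p under 0.05. The calculation was checked on simulated data (Python 3.11.15, pandas 2.3.3, scipy 1.17.1). The simulated libraries differed by counting noise alone, and the planted changes were larger than 2-fold. The check therefore covers the arithmetic and not how often real libraries give a false 2-fold gap. Of 860 entries in 31 gene lists and 13 marker lists, 823 were in the table, 13 by an older symbol. Some genes are in more than 1 list, so the counts of different lists are not separate results. Members and lists were chosen with earlier results of these data known. Genes named are the 12 highest and 12 lowest ratios with a higher mean of at least 50, up to 6 members of each list with the largest ratio, and index genes of each pathway; other list members are named where they are the exceptions to a count or carry a promoter motif, and were chosen after their values were seen. Coordinates are those of GENCODE vM21 for mm10, and all genes given with coordinates are protein-coding. Alternatives were 2 other pseudocounts, 2 other filters and 2 other scalings. Some genes that the rule would name are not reported here.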

Additional observations from a re-analysis of the deposited data

How the results depend on the processing

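With a pseudocount of 10, or with only genes of a mean of at least 50, the count of genes at least 2-fold higher under metformin went from 399 to 253 and 240; fewer low genes can pass under either by construction. The count higher under restriction was 298 and 288. With a pseudocount of 0.1, no filter, centring on the median or equal totals without Rn45s and Lars2, the first count ran from 400 to 471 and the second from 342 to 443. With a mean of at least 50, the median of the cell cycle and p53 list went from 0.29 to -0.34 and that of the cholangiocyte markers from -0.19 to 0.34, with fewer members left. Equal totals turned the sign of 2 of 253 named genes (Adipoq and Prkaa2) and of the medians of 3 of 42 lists (antioxidant genes, complement and coagulation, stellate cell markers), all within 0.07 of 0 before. It also took Cebpb, Vldlr and Ppara under 2-fold and Dhcr7, Asns and Rtp4 over it. No other setting turned the sign of a named gene. No paired analysis was possible because the table gives group means, whose columns carry no replicate numbers, and leaving out a library in turn could not be run for the same reason. Means without spread and unknown depth limit every ratio here, most of all for genes with a mean of a few counts in 1 group.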
